A study of Rattus norvegicus with 28 samples.

Results

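RNA of rat neural progenitor cells exposed to injured spinal cord and labelled 4 weeks was compared with RNA of cells with the same label that were kept in culture. The comparison rests on 4 injured week 4 libraries and 4 culture libraries, which are 8 of the 28 libraries in the series. These libraries were picked by their exposure label and not by a measured value. The comparison itself was chosen with earlier results of these data known. Where other groups are used, they are injured week 3, uninjured week 3 and uninjured week 4, with 4 libraries each. The week 2 groups, with 84532 to 446331 counts a library, are shown in plots and are compared with no other group by a test. They do enter the scaling over all 28 libraries, the larger fits of 28 and 27 libraries and the outlier check in the closing sections. The groups called uninjured carry a spinal cord label with no word on injury. The study's title concerns recovery after such cells are transplanted into injured cord. Strain, age, the way the cells met the cord, the event from which weeks are counted, and whether the cells were separated from host tissue are not stated in the labels. Separate animals or cultures are not stated for libraries of 1 group either, so the spread on which the p-values rest may be technical.

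Neural progenitor cells divide and can give rise to neurons, astrocytes and oligodendrocytes. In culture, growth factors keep them dividing, and their withdrawal or a tissue setting is known to let such cells leave the cycle and differentiate. Injured cord is known for inflammation, loss of myelin and a scar formed by astrocytes and connective tissue cells. None of this was read from the data. The deposited table gives rat Ensembl identifiers, 0 of its 32545 identifiers could be matched to a gene symbol, and the labelled cell type was therefore not checked against its markers. Genes are described below as groups, with 4 identifiers given for the largest changes.

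Injured week 4 libraries held 3671962 to 4467448 counts and culture libraries 5273204 to 6908508 counts. Injured week 4 libraries detected 15494 ± 317 genes with at least 1 count (SD, n = 4) and culture libraries 17060 ± 211 (SD, n = 4). The 2 groups did not overlap, and the exact permutation p of 0.0286, two-sided, is the smallest that 4 against 4 libraries can give. After random thinning of all 8 libraries to the lowest total, the injured week 4 libraries still detected fewer genes, at 15366 ± 249 against 16280 ± 92.3 in culture (SD, n = 4 each; exact permutation p = 0.0286, two-sided). The 2 most abundant genes took 24.4% to 33.65% of the counts in injured week 4 libraries and 21.73% to 26% in culture libraries, so these ranges overlapped. The 100 most abundant genes of each library took 41.58% to 52.48% in injured week 4 and 36.87% to 40.44% in culture, without overlap. Thinning does not even out these shares.

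The culture libraries resembled each other more closely than the injured week 4 libraries did. Over 9090 genes with a mean of at least 10 CPM (counts per 1000000 counts of the TMM-scaled library total, here scaled over the 8 libraries), the median coefficient of variation was 19.6% in injured week 4 and 8.65% in culture. Without injured week 4 replicate 2 it was 12% over the remaining 3 libraries. That replicate had the highest share of counts in the 2 most abundant genes. Across 12394 genes, Spearman correlations were 0.944 to 0.984 within injured week 4, and 0.975 to 0.984 without that replicate. They were 0.987 to 0.989 within culture and 0.717 to 0.77 between the groups. These correlations are across genes, which are not independent replicates. Both measures used unthinned counts, and the culture libraries were deeper, which lowers counting error. How much of their closer resemblance came with depth was not tested.

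More than 1 in every 2 genes tested differed between injured week 4 and culture. Of 12394 genes, 7190 were called, a share of 58.0%, at a Benjamini-Hochberg adjusted p under 0.05 in the quasi-likelihood test of edgeR. Of these, 3715 were higher and 3475 lower in injured week 4, or 30% and 28% of the genes tested. The fold change was at least 2-fold for 2064 higher and 1851 lower genes, 16.7% and 14.9% of the genes tested. Leaving out injured week 4 replicate 2 gave 8019 calls, of which 4069 were higher and 3950 lower. The median log2 fold change over all genes tested was 0.0057, with quartiles of -0.55 and 0.61. In bulk RNA, more or fewer cells of a type and more or less RNA per cell cannot be told apart, and RNA of host tissue in the exposed samples cannot be told apart from a change in the cells.

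**Figure D1:**
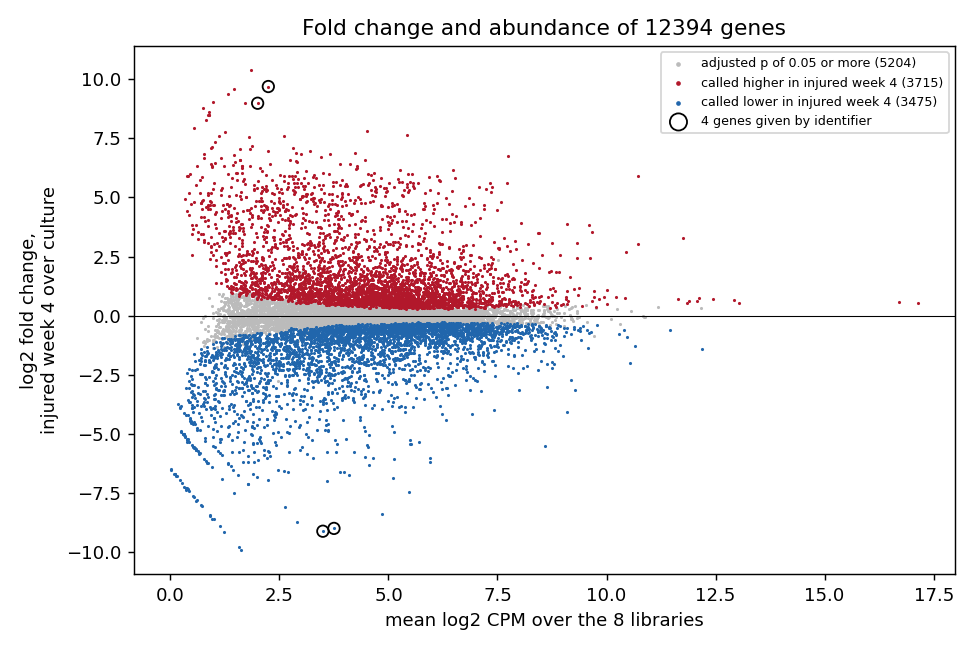
Each point is 1 of 12394 genes, with its mean log2 CPM over the 8 libraries on the horizontal axis and its log2 fold change, injured week 4 over culture, on the vertical axis. The 3715 red and 3475 blue points are genes called higher and lower, they occur at every level of abundance, and black circles mark the 4 genes given by identifier.

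Large changes were found in both directions. Of the 12394 genes tested, at least 4-fold differences were called for 1037 higher and 899 lower genes. At 16-fold or more the split was uneven, with 454 genes higher and 261 lower in injured week 4, so that 63.5% of these genes were higher. This split was not recomputed with other scaling factors, with which the balance of all calls moved, as given in the closing section. At 64-fold or more it was 75 and 74 genes. Fitted fold changes against a group with no counts depend on the model's prior count, and this applied to 11 of the 75 genes, which had 0 counts in culture, and to 32 of the 74, which had 0 counts in injured week 4.

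**Figure D2:**
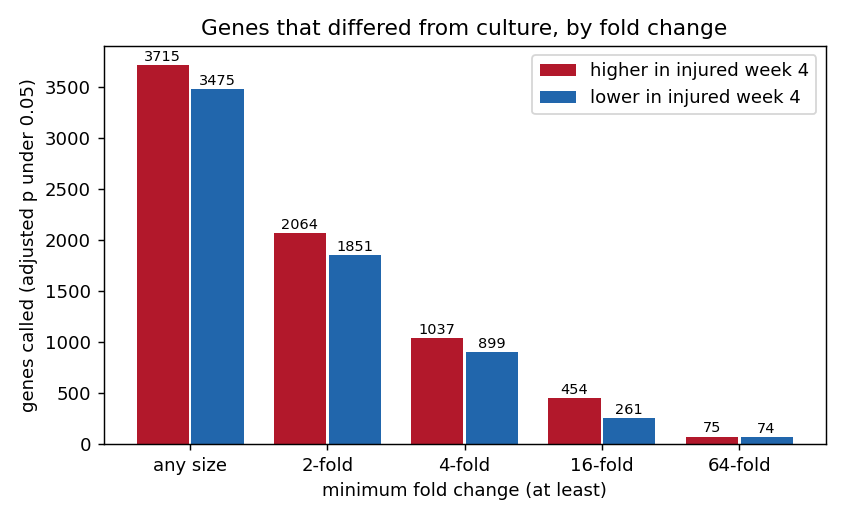
Bars count the genes called at an adjusted p under 0.05, by the minimum fold change on the horizontal axis, with genes higher in injured week 4 in red to the left of genes lower in blue. From 3715 higher and 3475 lower genes of any size, 454 and 261 remain at 16-fold or more.

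The called genes were spread over low, middle and high abundance. Tiers were cut on the mean log2 CPM of a gene over the 8 libraries, at the log2 of 10 and of 100 CPM. A mean of logs lies below the log of the mean for a gene that differs much between groups. Strongly changed genes could therefore fall in a lower tier than their mean CPM would give. Among 3647 genes in the tier under 10 CPM, 27.1% were called higher and 31.3% lower in injured week 4. Among 7257 genes between 10 and 100 CPM, higher calls were the more frequent, with 32% higher and 25.3% lower. Among 1490 genes over 100 CPM, 27.2% were called higher and 33.2% lower. Changes of at least 2-fold made up 48.3% of the genes in the lowest tier, 25.1% in the middle tier and 22.6% in the highest. Which tier held more higher than lower calls can move with the scaling factors, as given for the whole table in the closing section, and was not tested per tier.

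**Figure D3:**
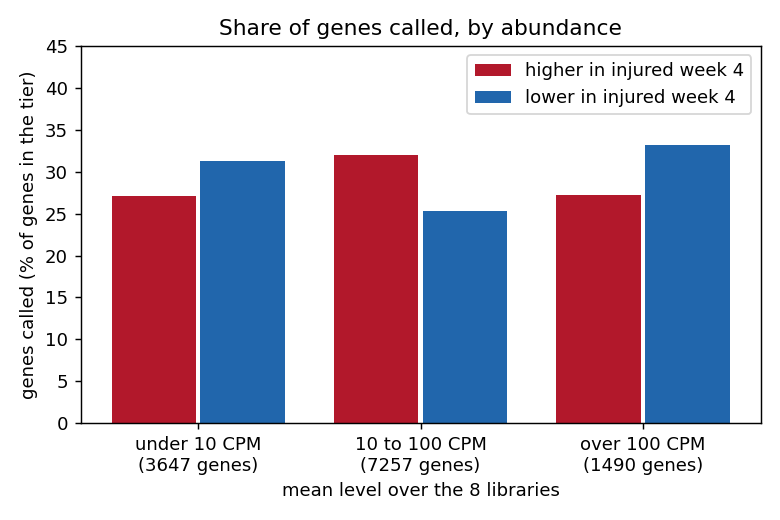
Bars give the percentage of genes called at an adjusted p under 0.05 in each tier of mean log2 CPM, with limits labelled in CPM. Genes higher in injured week 4 are in red to the left of genes lower in blue. Higher calls exceed lower calls in the middle tier, at 32% against 25.3%, and lower calls exceed higher calls in the other 2 tiers.

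Some genes were found in 1 group alone at this depth. Of the 32545 genes deposited, 11 had at least 10 counts in each injured week 4 library and 0 in all culture libraries. In the other direction, 39 had at least 10 counts in each culture library and 0 in all injured week 4 libraries. A count of 0 over a group allows up to 3 counts, or 0.188 CPM in injured week 4 and 0.126 CPM in culture, for counting error only. After thinning of every library to the same total count the numbers were 11 and 26, with the shares of the most abundant genes left as they were.

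The naming rule asked for a call, a mean log2 CPM of at least 2 and CPM ranges that did not overlap between injured week 4 and culture. Of the 12394 genes tested, 5562 met it, 2917 higher and 2645 lower. No overlap on its own was met by 27.2% of the genes tested in the higher direction and by 27.2% in the lower one. The 12 genes with the largest rises had 37.5 to 586 CPM in injured week 4 and 0.041 to 2.88 CPM in culture, with log2 fold changes of 6.83 to 9.70. The 12 with the largest falls had 0.209 to 3.23 CPM in injured week 4 and 36.9 to 572 CPM in culture, with log2 fold changes of -9.13 to -6.62. In the group where they were high, every library held at least 51 counts for each of the 12 risen genes and at least 191 for each of the 12 fallen genes.

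ENSRNOG00000018445 had the largest rise among these genes. It had 178, 210, 183 and 182 counts in the 4 injured week 4 libraries, against 0, 0, 1 and 0 counts in the 4 culture libraries. All injured week 4 libraries were high and close to one another, and the groups did not overlap, which the naming rule required. The means were 52.6 ± 10.1 CPM in injured week 4 and 0.0407 ± 0.0815 CPM in culture (SD, n = 4 each), and the log2 fold change was 9.70 ± 0.37 SE (adjusted p = 5.17e-12 by edgeR). With a single count in culture, the ratio of pooled counts per scaled total was 1340, with an exact 95% counting interval of 240 to 53100, and without culture replicate 3, which held that count, the fold was larger, at 11 on the log2 scale.

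ENSRNOG00000029886 had the next largest rise, with a wide spread. It had 96, 455, 51 and 97 counts in injured week 4, against 0, 1, 1 and 0 counts in culture. Injured week 4 replicate 2 stood far above the other 3, and even the lowest of them lay above all culture libraries, which the naming rule required. The means were 52.6 ± 61.4 CPM in injured week 4 and 0.0832 ± 0.0961 CPM in culture (SD, n = 4 each), and the log2 fold change was 8.99 ± 1.63 SE (adjusted p = 0.00295 by edgeR). Without injured week 4 replicate 2 the log2 fold change was 7.77 (adjusted p = 1.96e-09 by edgeR), and over all 19 alternatives the adjusted p was at most 0.0129. The ratio of pooled counts was 623, with a counting interval of 172 to 5150.

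ENSRNOG00000012660 had the largest fall. It had 0, 0, 1 and 4 counts in injured week 4, against 1412, 1227, 1228 and 1462 counts in culture. The culture libraries were uniformly high and the injured week 4 libraries at or near 0. The means were 0.333 ± 0.524 CPM in injured week 4 and 206 ± 14.6 CPM in culture (SD, n = 4 each), and the log2 fold change was -9.13 ± 0.32 SE (adjusted p = 2.17e-12 by edgeR). Without injured week 4 replicate 4, which held 4 of the 5 counts, it was -10.8.

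ENSRNOG00000010688 had the next largest fall. It had 0, 2, 5 and 0 counts in injured week 4, against 1806, 1823, 1455 and 1572 counts in culture. Again no injured week 4 library came near the culture libraries, and the naming rule required ranges that did not overlap. The means were 0.447 ± 0.558 CPM in injured week 4 and 260 ± 47.5 CPM in culture (SD, n = 4 each), and the log2 fold change was -9.01 ± 0.35 SE (adjusted p = 5.66e-12 by edgeR). Without injured week 4 replicate 3 it was -10.2.

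These 4 genes differed from one another in the groups outside the comparison, with CPM here scaled over all 28 libraries. They were named for extreme values in the injured week 4 libraries, and the comparisons with other cord groups below use the same libraries, so their differences and p-values are not independent of that choice. ENSRNOG00000018445 averaged 8.62 ± 1.45 CPM in injured week 3 and 54.9 ± 11.2 CPM in injured week 4, against 2.82 ± 1.26 CPM in uninjured week 3, 6.22 ± 9.5 CPM in uninjured week 4 and 0.0501 ± 0.1 CPM in culture (SD, n = 4 each). Its 4 injured week 4 libraries lay above those of the other groups of weeks 3 and 4 and of culture, the nearest being uninjured week 4 replicate 3 at 20.4 CPM. It was higher in injured week 4 than in uninjured week 4, and the log2 fold change was 3.24 ± 0.79 SE (adjusted p = 0.0115 by edgeR). That value rested on uninjured week 4 replicate 3, which held 54 of the 71 counts of its group, and without it the log2 fold change was 5.12 ± 0.32 SE. It was also higher than in injured week 3, and the log2 fold change was 2.89 ± 0.22 SE (adjusted p = 0.000253 by edgeR). Without injured week 3 replicate 3 it was 2.78.

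ENSRNOG00000029886 was found in all cord groups, at 74.5 ± 73.6 CPM in injured week 3 and 55.4 ± 65.7 CPM in injured week 4, against 59.5 ± 14 CPM in uninjured week 3, 41.2 to 146 CPM in uninjured week 4 and 0.103 ± 0.119 CPM in culture (mean ± SD or range, n = 4 each). The cord groups at weeks 3 and 4 overlapped, and injured week 3 replicate 3 stood lowest among them at 0.769 CPM. The log2 fold change of injured over uninjured week 4 was -0.94 ± 0.83 SE (adjusted p = 0.422 by edgeR), so no difference was shown with all libraries. Without injured week 4 replicate 2, its highest library in that group, it was -2.15 ± 0.50 SE (adjusted p = 0.0101 by edgeR), while over the other libraries left out in turn it stayed between -1.19 and -0.58 with adjusted p of at least 0.359. Against injured week 3 the log2 fold change was -0.22 ± 1.35 SE (adjusted p = 0.957 by edgeR).

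ENSRNOG00000012660 was low in every cord group of weeks 3 and 4, at 0.924 ± 0.443 CPM in injured week 3 and 0.346 ± 0.542 CPM in injured week 4, against 0.188 ± 0.146 CPM in uninjured week 3, 0.834 ± 0.651 CPM in uninjured week 4 and 255 ± 18.4 CPM in culture (SD, n = 4 each). Too few counts were left for it to enter the comparisons between cord groups. ENSRNOG00000010688 had intermediate levels in the other cord groups, at 19.5 ± 13.6 CPM in injured week 3 and 0.472 ± 0.588 CPM in injured week 4, against 8.28 ± 3.06 CPM in uninjured week 3, 7.75 ± 2.05 CPM in uninjured week 4 and 321 ± 60.3 CPM in culture (SD, n = 4 each). It was lower in injured than in uninjured week 4, and the log2 fold change was -3.90 ± 0.61 SE (adjusted p = 9.27e-05 by edgeR). That value was -5.03 without injured week 4 replicate 3. Against injured week 3 it had too few counts to be tested with all libraries. Without injured week 3 replicate 3, which had 0 counts for it, it was lower in injured week 4, by -5.40 ± 0.51 SE on the log2 scale (adjusted p = 1e-06 by edgeR). In the fits that left out an injured week 4 library in place of that replicate, the adjusted p was 0.108 to 0.161.

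**Figure D4:**
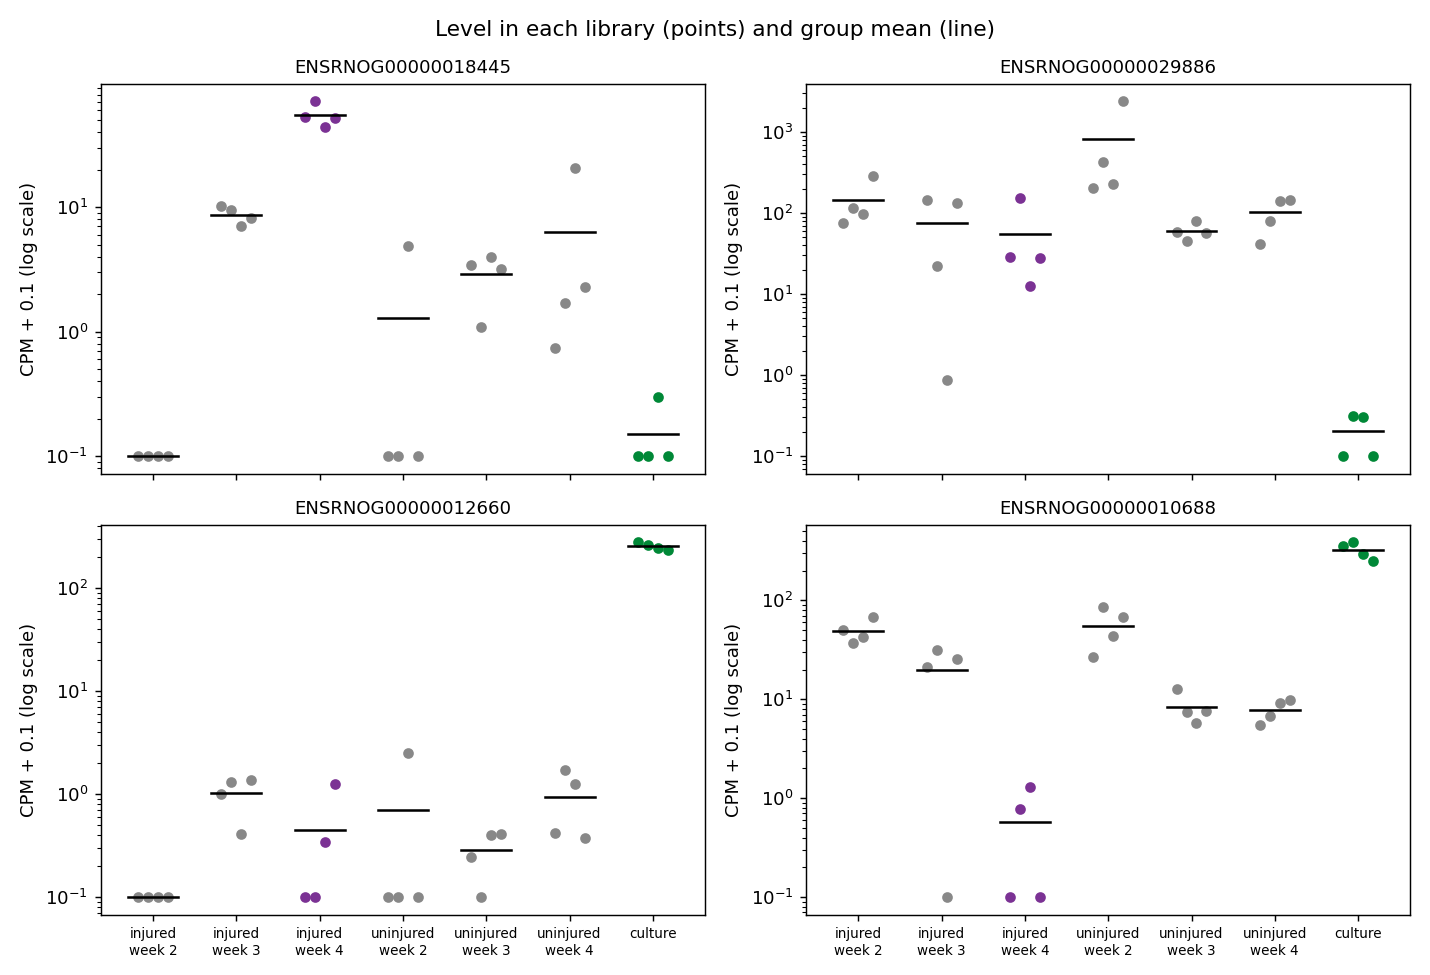
Points give the level of each of the 4 genes in every library of the 7 groups, as CPM scaled over all 28 libraries plus 0.1 on a log axis, and lines give group means. ENSRNOG00000018445 has its highest mean in injured week 4, ENSRNOG00000029886 is present in all cord groups, and ENSRNOG00000012660 and ENSRNOG00000010688 are highest in culture.

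The 2064 genes at least 2-fold higher in injured week 4 than in culture had median levels in uninjured cord that overlapped those in injured week 4. Their median level, on the scale of all 28 libraries, was 35.6 to 39.3 CPM in the injured week 4 libraries and 7.72 to 8.21 CPM in the culture libraries, the groups that chose them. In libraries that did not choose them it was 32.8 to 37.5 CPM in uninjured week 3 and 28.4 to 36.1 CPM in uninjured week 4. In injured week 3 it was lower, at 14 to 15.3 CPM in 3 libraries and 6.31 CPM in replicate 3. That replicate listed 0 counts for both of the most abundant genes and detected 11544 genes. The median over all 12394 genes was 25 CPM in injured week 4 and 26.2 CPM in culture.

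The 1851 genes at least 2-fold lower had a median of 4.04 to 4.56 CPM in the injured week 4 libraries and 24.5 to 25 CPM in the culture libraries. In uninjured week 3 it was 4.18 to 5.92 CPM. In uninjured week 4 it was 5.51 to 6.27 CPM in 3 libraries and 9.46 CPM in replicate 3. That library detected 20098 genes from 2605188 counts, against 17623 to 18302 genes in the others of its group. In injured week 3 the median of the set was 9.3 to 10.5 CPM in 3 libraries and 4.15 CPM in replicate 3.

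**Figure D5:**
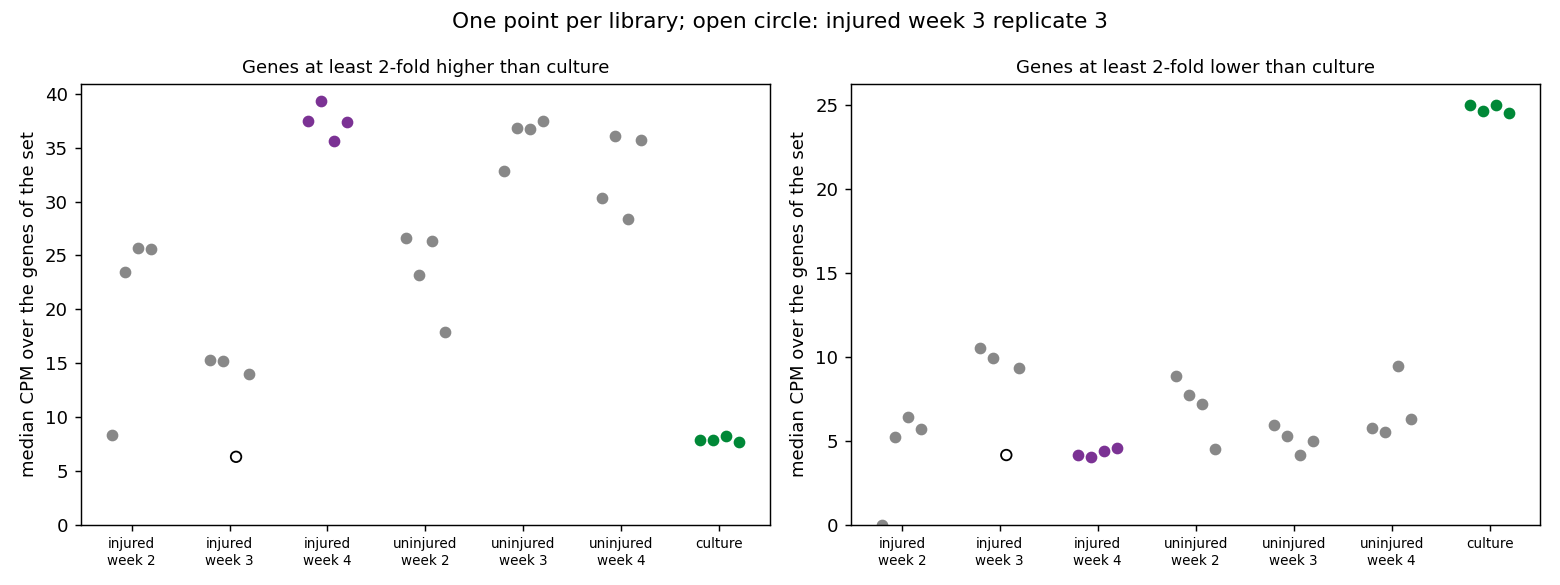
Each point is the median CPM, in 1 library, of the 2064 genes at least 2-fold higher (left) or the 1851 genes at least 2-fold lower (right) in injured week 4 than in culture. Purple points are injured week 4, green points are culture, and the open circle is injured week 3 replicate 3. The left set is at 28.4 to 39.3 CPM in injured week 4 and both uninjured groups of weeks 3 and 4, and at 14 to 15.3 CPM in the 3 other injured week 3 libraries.

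The injury comparison at week 3 uses none of the 8 libraries that chose these sets, and it was added after the data were seen. Without injured week 3 replicate 3, 12418 genes were tested there and 60.7% were called (edgeR, adjusted p under 0.05). Injured week 3 exceeded uninjured week 3 for 29.1% of the genes tested and fell below it for 31.6%, and by at least 2-fold for 18.9% and 24.3%. Of the genes at least 2-fold higher in injured week 4 than in culture, 2013 were tested, and 1343 of them (66.7%) were lower and 384 (19.1%) higher in injured week 3 than in uninjured week 3. Their median log2 fold change was -1.61, against 0.01 for all genes tested. Of the genes at least 2-fold lower in injured week 4 than in culture, 1484 were tested, and 715 (48.2%) were higher and 399 (26.9%) lower in injured week 3. The first set, 2013 of the 12418 genes tested, held 34.2% of all genes called lower in injured week 3 and 10.6% of those called higher. The second set, 1484 of the 12418, held 19.8% of all genes called higher and 10.2% of those called lower. With all 8 week 3 libraries, 44.9% of 12008 genes were called, with a rise of 2-fold or more for 14.1% and a fall of that size for 19.8%. There, 1128 of 1968 genes (57.3%) of the first set were lower, against 24.6% of all genes, and 506 of 1392 (36.4%) of the second set were higher, against 20.3% of all genes.

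Injured week 4 also differed from its nearest groups. Against uninjured week 4, 4903 of 12117 genes were called (40.5%; edgeR, adjusted p under 0.05), 2286 higher (18.9%) and 2617 lower (21.6%) in injured week 4. At least 2-fold differences were called for 1177 higher (9.71%) and 1742 lower genes (14.4%). Against injured week 3 with all 4 libraries, 2736 of 11629 genes were called (23.5%), 1681 higher (14.5%) and 1055 lower (9.07%) in injured week 4, of which 1332 (11.5%) and 679 (5.84%) by at least 2-fold. With upper quartile factors in place of TMM, 43.9% of the calls were higher, against 61.4%. Without injured week 3 replicate 3 the count was 4603 of 11836 genes (38.9%), 2611 higher (22.1%) and 1992 lower (16.8%), of which 1835 (15.5%) and 1122 (9.48%) by at least 2-fold. These comparisons share the injured week 4 libraries with the comparison to culture, so their lists were not overlapped.

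The 12 genes each way were likewise chosen for their extreme values in the injured week 4 and culture libraries, so the order of other cord groups against injured week 4 is a description that the choice can set. Among the 12 genes with the largest rises over culture, uninjured week 4 had a higher mean than injured week 4 for 10. Injured week 3, without replicate 3, had a higher mean than injured week 4 for 1. The medians over these 12 genes were 9.27 CPM in injured week 3 and 70.6 CPM in injured week 4, against 206.6 CPM in uninjured week 3, 145.7 CPM in uninjured week 4 and 0.698 CPM in culture. Among the 12 genes with the largest falls, injured week 3 had a higher mean than injured week 4 for 12 and uninjured week 4 for 9. Their medians were 9.08 CPM in injured week 3 and 0.755 CPM in injured week 4, against 4.06 CPM in uninjured week 3, 5.43 CPM in uninjured week 4 and 191.5 CPM in culture.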

How the data were processed

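Raw, unnormalized gene counts were deposited by the authors as a single table of 28 libraries. Trizol extraction and a stranded low-input total RNA kit are named per the labels' protocols. Per the submitters' processing notes, STAR 2.5.1, featureCounts 1.5.1, StringTie 1.3.3, Trim Galore 0.4.1, Picard and FastQC 0.11.5 were among the tools, with no role given. The notes name the mouse build GRCm38, although the identifiers are rat. The sources used here do not settle the genome aligned to, the annotation, the strand setting or the treatment of duplicates. Counts of near-identical or overlapping genes are therefore uncertain.

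Each comparison was fitted on its own libraries with edgeR 4.0.16 in R 4.3.3 (TMM factors, filterByExpr, robust quasi-likelihood F test, Benjamini-Hochberg adjustment). For the main comparison, 8 libraries left 6 residual degrees of freedom. Of 32545 genes, 11413 had 0 counts in these libraries and 8738 more failed the filter. Standard errors are the log2 fold change divided by the root of F. The test was checked on simulated counts in which few genes were changed, unlike in the data. Of simulated 2-fold changes, 83.2% were recovered for injured week 4 against culture. The share was 58.8% against uninjured week 4 and 54.1% against injured week 3 without its replicate 3. Of simulated 4-fold changes, 96% to 100% were recovered, and false calls were 13, 9 and 9. Of the 12 same-group pairs among the 8 libraries, 0 were identical, and the chi-square statistic per degree of freedom was 5.36 to 30.3, above sampling noise. Reads carried no molecular identifiers as far as stated, so intervals and floors cover counting error only.

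The comparison, its lists and its tests were chosen with earlier results of these data known. Genes were named by largest log2 fold change among those called, with a mean log2 CPM of at least 2 and no overlap between groups. The rule also asked for a symbol, which was dropped, and 2 identifiers each way are printed. The 48 gene lists, the genes to be named whatever their result, the marker check and the promoter motifs need symbols and were not run. Alternatives were other scaling factors, DESeq2 1.42.0, limma 3.58.1, other filters, thinning, larger fits and leaving out each library.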

Additional observations from a re-analysis of the deposited data

Results flagged for a closer look

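Dixon's ratio was computed for 38 sets of 4 values and passed its 95% critical value in 9. For independent, normally distributed values about 1 in 20 would pass by chance. These sets share libraries, hold many values at or near 0 counts and include genes picked for extreme values. The number passed can therefore not be judged against that rate. For 3 of the 9 all other libraries were at 0 counts, so the ratio could only be 1. The 100 most abundant genes took 52.48% of the counts in injured week 4 replicate 2 (Wilson 95% interval 52.43% to 52.53%) and 41.58% to 43.19% in the other 3 libraries of its group. Culture replicate 1 had 40.44% of its counts in such genes (40.4% to 40.47%), against 36.87% to 36.96% in the other culture libraries, and 26% of its counts in the 2 most abundant genes (25.97% to 26.04%), against 21.73% to 22.03%.

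CPM values of injured week 4 and culture are scaled over the 8 libraries, and those of other groups over all 28. ENSRNOG00000029886 stood at 144.1 CPM in injured week 4 replicate 2 and at 11.76 to 27.86 CPM in the other 3, and at 2388 CPM in uninjured week 2 replicate 4, against 204 to 421.9 CPM in the others of that group. ENSRNOG00000018445 stood at 20.44 CPM in uninjured week 4 replicate 3, against 0.638 to 2.181 CPM in the others. It had 4.785 CPM in uninjured week 2 replicate 3 and 0.1629 CPM in culture replicate 3, where the other libraries of each group had 0 counts. ENSRNOG00000012660 had 2.393 CPM in uninjured week 2 replicate 3, from 1 count, and 0 counts in the others.

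The difference of ENSRNOG00000018445 from culture was larger at week 4 than at week 3 of injured exposure, by a log2 fold change of 2.89 between the 2 weeks (edgeR adjusted p = 0.000253), and it was higher in 4 of 4 injured week 4 libraries than in any injured week 3 library. The gene was named for its rise in the same injured week 4 libraries, so this p is not independent of that choice.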

How the results depend on the processing

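No paired analysis was possible because the labels give no replicate numbers, and those used here follow the order of deposition. Against culture, the 7190 calls among 12394 genes became 4179 (2239 higher, 1940 lower) when tested against a fold change of 1.5. They became 3302 (1535 and 1767) among 13865 genes when all 28 libraries were fitted, the shallow week 2 libraries among them. In a fit of 27 libraries without injured week 3 replicate 3, added after the data were seen, lower calls were 2211 of 4801. That fit tested 14282 genes. With RLE or upper quartile factors, DESeq2, limma voom, other count filters, thinning or removal of the 2 most abundant genes, the total was 6858 to 8357. The genes entered differed, so these totals are not shares of the same number. The 8357 calls without a count filter and the 7953 with DESeq2 were among 21132 genes, and the 6858 after thinning among 12039. No gene called at first was called in the opposite direction in any of these fits. Of the 7190 genes, however, only 58.1% were called again against a fold change of 1.5, 42% in the fit of 28 libraries and 60.9% in that of 27. The balance of higher and lower genes was not stable, with 51.7% of calls higher at first, 43.5% with upper quartile factors and 49.4% with DESeq2. Upper quartile factors moved the median log2 fold change to -0.12 and the fit of 28 libraries to -0.21. Leaving out 1 library gave 6565 to 8019 calls, 3437 to 4069 higher and 3126 to 3950 lower. Each of the 4 identifiers kept its direction and call in 19 of 19 alternatives. The alternatives reuse the libraries in which these genes were picked for the largest changes, so another outcome was hardly possible. With limma voom the log2 fold changes of ENSRNOG00000018445, ENSRNOG00000029886 and ENSRNOG00000010688 were 8.90, 7.42 and -10.1, and thinning gave ENSRNOG00000018445 9.11.

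Against uninjured week 4, calls were 2649 (1067 higher, 1582 lower) with a fold change of 1.5 and 2396 (884 and 1512) with all 28 libraries. The fit of 27 libraries, without injured week 3 replicate 3, gave 3895 (1723 and 2172). Without a count filter 2687 of 23938 genes were at least 2-fold lower. Against injured week 3 with all 4 of its libraries, DESeq2 gave 4129 calls (1690 lower) among 19951 genes. There, limma voom gave 1609 lower and a fold change of 1.5 gave 1647 calls (477 lower). Upper quartile factors put 1049 genes at least 2-fold lower and the share of higher calls at 43.9%, against 61.4% at first. Leaving out 1 library gave 2035 to 4603 calls, 1320 to 2611 higher, 715 to 1992 lower and 563 to 1122 at least 2-fold lower, the highest each time without injured week 3 replicate 3. In the week 3 comparison, 231 genes of the first set were higher with all 8 libraries, against 384. The cause of these shifts was not tested. Removal of mitochondrial and ribosomal RNA genes was not run, since it needs gene names.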
